A study of Mus musculus with 59 samples.

Results

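BCL6 and PPAR binding was called in or near the transcription factor genes that give the hepatocyte its identity, in mouse liver. The 9 genes examined were *Hnf4a*, *Foxa1*, *Foxa2*, *Foxa3*, *Onecut1*, *Cebpa*, *Cebpb*, *Nr5a2* and *Prox1*. A binding region was given to one of them when a peak centre lay in the gene, or when the nearest transcription start site (TSS) of a protein-coding RefSeq gene, within 100 kb, was that gene's own. By this rule 106 of 40474 regions belonged to the 9 genes, out of 21774 protein-coding genes. A region was a set of peak centres joined within 200 bp across 7 ChIP-seq peak lists. In 43 of the regions a peak lay in the gene itself, and 63 were outside it. ChIP-seq (chromatin immunoprecipitation followed by sequencing) recovers the DNA that a protein occupies. The lists covered BCL6, PPARα and PPARδ in livers of male C57BL/6 mice, either fed ad libitum or fasted overnight, together with BCL6 in Bcl6 fl/fl mice, also fed, which carry the floxed allele without Cre. Each list was made over 3 replicates, so 21 of the 59 samples of the series stand behind them.

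The lists give positions without scores or read counts. A region was therefore either called or not called in a condition, the sequencing depth behind each call is unknown, and no value carries an error between replicates. The lists held 15642 BCL6 peaks in fed and 9613 in fasted C57BL/6 livers, 17454 in fed Bcl6 fl/fl livers, 21410 and 29085 PPARα peaks in fed and fasted livers, and 7328 and 2399 PPARδ peaks. Shares are given with 95% Wilson intervals that cover counting error only. Neighbouring regions of a gene are not independent replicates, and no test was made.

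HNF4α is a nuclear receptor that maintains the expression of most hepatocyte genes. The FOXA proteins are pioneer factors that open chromatin, and ONECUT1 (HNF6) is a homeodomain factor of liver development. C/EBPα and C/EBPβ are basic leucine zipper factors of metabolic and acute-phase genes. NR5A2 (LRH-1) is a nuclear receptor of bile acid and cholesterol metabolism, and PROX1 is a homeodomain corepressor of hepatocytes. These factors bind the regulatory regions of one another's genes. BCL6 is a zinc finger repressor, and PPARα and PPARδ are lipid-activated nuclear receptors that bind DNA with RXR.

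The regions called in the most lists are shown first, since they carry binding of all 3 factors. No region of the 9 genes was in all 7 lists, and over the genome only 646 of 40474 regions were. Of the 106 regions, 6 were in 6 lists, the missing list being PPARδ in fasted livers for each of them. For the 4 genes with such a region, the 200 bp at the centre of the one nearest to a TSS of the gene follow, from the GRCm38 (mm10) plus strand. Capitals mark matches to 7 short elements described further on.
Foxa2, 19.8 kb downstream of its nearest TSS, chr2:148025613-148025812: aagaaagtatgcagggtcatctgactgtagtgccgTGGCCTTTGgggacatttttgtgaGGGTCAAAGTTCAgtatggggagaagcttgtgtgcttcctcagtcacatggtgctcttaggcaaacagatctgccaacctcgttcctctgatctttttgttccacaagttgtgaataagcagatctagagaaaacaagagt
Foxa3, intron 1, chr7:19016118-19016317: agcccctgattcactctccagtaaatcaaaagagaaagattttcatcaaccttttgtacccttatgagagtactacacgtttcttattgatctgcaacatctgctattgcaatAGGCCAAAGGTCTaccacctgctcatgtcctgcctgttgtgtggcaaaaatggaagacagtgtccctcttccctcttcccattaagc
Nr5a2, intron 6, chr1:136929806-136930005: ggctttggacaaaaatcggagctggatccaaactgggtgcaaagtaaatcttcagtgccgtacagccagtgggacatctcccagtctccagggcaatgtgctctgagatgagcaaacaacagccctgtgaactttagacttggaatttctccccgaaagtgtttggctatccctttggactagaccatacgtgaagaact
Prox1, intron 3, chr1:190147880-190148079: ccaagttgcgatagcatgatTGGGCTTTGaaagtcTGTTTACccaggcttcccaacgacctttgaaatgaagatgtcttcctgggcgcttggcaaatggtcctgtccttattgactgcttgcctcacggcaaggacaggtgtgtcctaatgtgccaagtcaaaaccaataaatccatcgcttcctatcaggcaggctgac
In the *Foxa2* sequence the capitals are an HNF4 element and a DR1 whose letters overlap a second HNF4 element. The *Foxa3* sequence has a DR1, the *Prox1* sequence has an HNF4 element followed by a FOXA element, and the *Nr5a2* sequence has none of the 7.

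Regions centred within 1000 bp upstream and 100 bp downstream of a TSS of the gene itself were the second set of interest. There were 7 of them, at *Hnf4a*, *Foxa2*, *Onecut1*, *Cebpa* and *Nr5a2*. The windows below were chosen after their values were seen, as the promoter regions clear of annotated exons at the first exon of *Foxa2*, *Onecut1*, *Cebpa* and *Nr5a2*, together with the PPARδ region nearest to the start of *Cebpb*.
Foxa2, BCL6 and PPARα in both feeding states, chr2:148047013-148047212: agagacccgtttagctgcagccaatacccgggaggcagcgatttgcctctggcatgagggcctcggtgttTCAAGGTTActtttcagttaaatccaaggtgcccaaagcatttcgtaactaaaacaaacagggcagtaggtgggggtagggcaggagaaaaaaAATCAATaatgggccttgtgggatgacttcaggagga
Nr5a2, BCL6 and PPARα in both feeding states, chr1:136960610-136960809: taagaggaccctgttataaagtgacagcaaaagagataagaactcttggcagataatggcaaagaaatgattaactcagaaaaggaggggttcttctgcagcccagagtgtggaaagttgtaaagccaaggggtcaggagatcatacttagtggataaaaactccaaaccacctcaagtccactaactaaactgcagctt
Onecut1, PPARα in fasted livers only, chr9:74861652-74861851: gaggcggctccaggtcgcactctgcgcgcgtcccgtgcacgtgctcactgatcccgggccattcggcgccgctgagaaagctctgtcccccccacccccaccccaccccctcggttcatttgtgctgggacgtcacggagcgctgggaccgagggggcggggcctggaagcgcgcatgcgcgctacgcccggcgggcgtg
Cebpa, PPARα in fasted livers only, chr7:35119060-35119259: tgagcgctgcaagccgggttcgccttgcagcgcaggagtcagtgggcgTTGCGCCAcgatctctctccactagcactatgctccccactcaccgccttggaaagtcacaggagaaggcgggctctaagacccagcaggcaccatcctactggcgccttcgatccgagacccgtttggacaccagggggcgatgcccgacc
Cebpb, PPARα in both states and PPARδ in fed livers, chr2:167687731-167687930: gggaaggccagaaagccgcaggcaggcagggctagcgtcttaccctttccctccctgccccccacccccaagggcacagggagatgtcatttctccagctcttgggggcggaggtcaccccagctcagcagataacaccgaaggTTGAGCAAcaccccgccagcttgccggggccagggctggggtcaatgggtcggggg
The *Foxa2* promoter window has an NR5A2 and an HNF6 element, and the *Cebpa* and *Cebpb* windows each have a C/EBP element. The *Nr5a2* and *Onecut1* windows have none.

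All 9 genes had BCL6 and PPARα regions, and 7 of them had PPARδ regions. Of all protein-coding genes, 30.0% had a C57BL/6 BCL6 region, 48.2% a PPARα region and 20.5% a PPARδ region. *Nr5a2* had the most regions, 28, and 0.110% of protein-coding genes had more. It was followed by *Prox1* with 17, *Foxa2* with 15, *Cebpa* with 11, *Cebpb* with 10 and *Onecut1* with 8, while *Hnf4a* and *Foxa1* had 7 each and *Foxa3* had 3. Genes with much sequence nearer to them than to any other gene can collect more regions. Counted per 100 kb of this sequence, *Foxa3* stood highest with 28.1, ahead of *Cebpa* with 17.0 and *Nr5a2* with 12.9. The *Foxa3* value rested on 3 regions in 10.7 kb, 1 of them in the Bcl6 fl/fl list alone. *Onecut1* had the lowest density, 5.50 per 100 kb. By density, 4.68% of protein-coding genes stood above *Nr5a2* and 18.0% above *Onecut1*. The median of the 9 genes was 8.80 per 100 kb, against 0.615 over all protein-coding genes, of which 52.6% had a region.

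**Figure D1:**
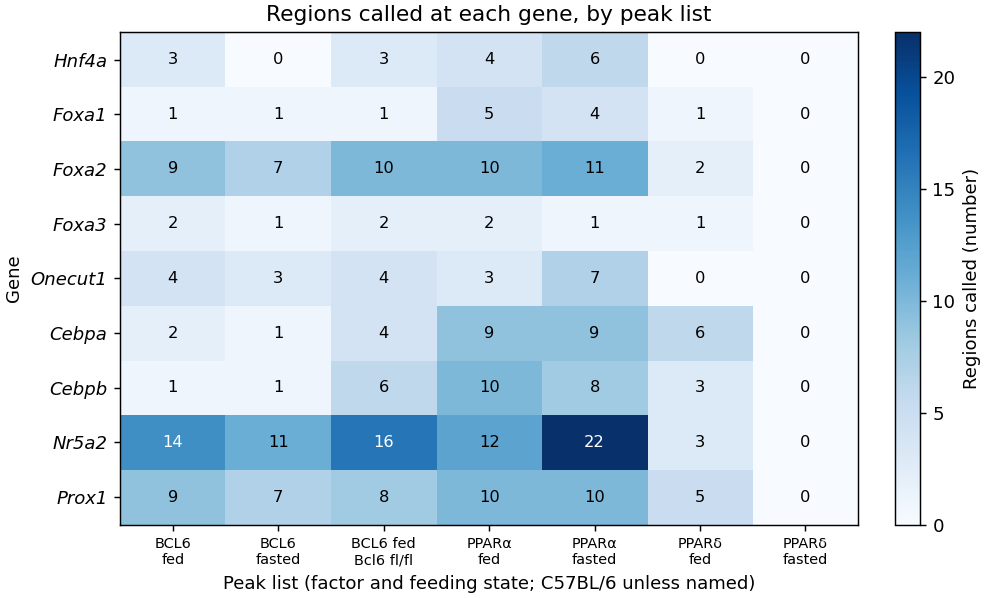
Number of regions called at each gene (rows) in each of the 7 peak lists (columns), shaded by number. *Nr5a2* reached 22 regions in the fasted PPARα list, and the fasted PPARδ list was empty at all 9 genes. *Foxa1*, *Foxa3*, *Cebpa* and *Cebpb* had at most 2 regions in a C57BL/6 BCL6 list.

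Other liver transcription factor genes were occupied at a similar median density. In a list of 14 of them, among which were *Nr1h4*, *Nr0b2* and *Xbp1*, every gene had a region, 13 had a C57BL/6 BCL6 region and the median density was 8.78 per 100 kb. A list of 9 transcription factor genes of other liver cell types held, among others, *Spi1* of macrophages and *Erg* of endothelium. All 9 had a PPARα region, against 48.2% of all protein-coding genes. A C57BL/6 BCL6 region was found at 3 of them (33.3%), near the 30.0% of all protein-coding genes. The median density was 1.91. *Sox9*, a cholangiocyte gene, had 10 of the 25 regions of this list. Among 9 genes of other lineages, such as *Myod1* and *Neurod1*, 6 had a region, 2 had a BCL6 region (22.2%), and the median density was 0.500. The 9 hepatocyte identity genes, at a median of 8.80, were next to the 14 other liver genes in this order.

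The feeding state in which regions were called was compared next for each factor. BCL6 was called at 45 regions of the 9 genes with feeding and at 32 after the fast, and the number of regions decreased by 28.9%. Over the genome it decreased by 38.5%. Of the 49 BCL6 regions at the 9 genes, 28 were called in both states, 17 were fed-only and 4 were fasted-only. The fed-only share was 34.7% (95% interval 22.9 to 48.7), against 45.3% of all BCL6 regions, and the fasted-only share was 8.16% (3.22 to 19.2), against 11.0%. When a fed BCL6 region had to be in the Bcl6 fl/fl list as well, the fed-only share was 22.0% (9 of 41 regions, 12.0 to 36.7), against 29.7% of all regions under the same rule. With the Bcl6 fl/fl list in place of the fed C57BL/6 list it was 43.9% (25 of 57, 31.8 to 56.7), against 50.2%. The genomic share lay within the interval in each of these comparisons, and how read depth differed between the fed and fasted lists is unknown.

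PPARα went in the opposite direction, from 65 regions in fed to 78 in fasted livers, an increase of 20.0%, with 35.8% over the genome. Of its 93 regions, 50 were called in both states, 28 were fasted-only and 15 were fed-only. The fasted-only share of 30.1% (21.7 to 40.1) stood beside 35.8% of all PPARα regions, and the fed-only share of 16.1% (10.0 to 24.9) beside 12.8%. Both genomic shares lay within the intervals.

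PPARδ was called at 21 regions with feeding and at none after the fast. All 21 PPARδ regions were fed-only (100%, interval 84.5 to 100), compared with 70.7% of all PPARδ regions. At the 14 other liver transcription factor genes, 8 of 29 PPARδ regions were called in fasted livers. The result depended on the reach: with regions up to 1 Mb from a TSS, 30 of 33 PPARδ regions (90.9%) were fed-only. The fasted PPARδ list is the shortest of the 7, and its depth is unknown.

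**Figure D2:**
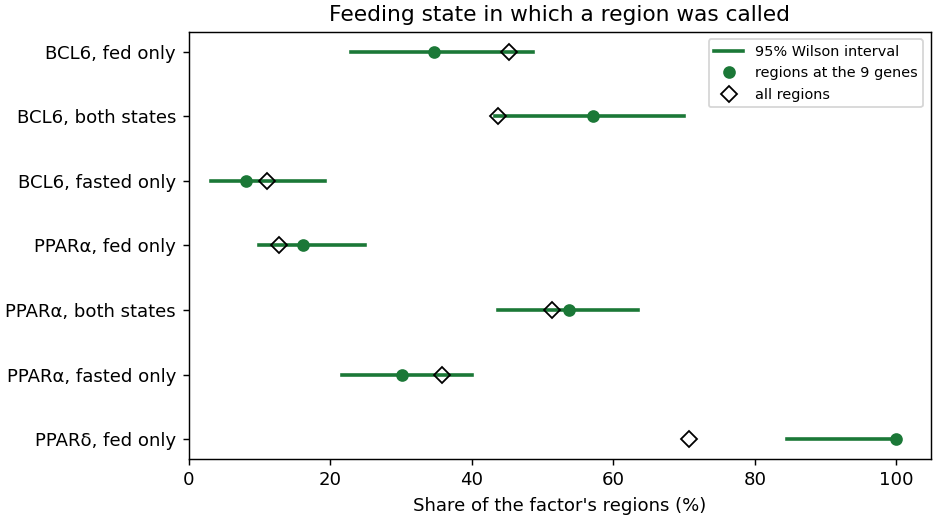
Share (%) of each factor's regions that were fed-only, shared by both states or fasted-only, for the 9 genes (circles with 95% Wilson intervals) and all regions (diamonds). The genomic share falls within the interval in every row but PPARδ, where the 9 genes are at 100% and all regions at 70.7%.

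The genes differed among themselves in which factor was called. *Hnf4a* had BCL6 at 3 regions in fed C57BL/6 livers and at none in fasted livers, and the same 3 regions were in the Bcl6 fl/fl list. PPARα was called at 4 regions of *Hnf4a* in fed and 6 in fasted livers, and PPARδ at none. The BCL6 regions were at chr2:163538411-163538654 and chr2:163540717-163540957, in intron 2 and 8.62 and 6.32 kb upstream of the internal start site used in adult hepatocytes, and at chr2:163555356-163555689 in intron 4. Each also had a PPARα peak, with centres 6.0, 2.0 and 81.0 bp apart. At the intron 4 region PPARα was called in fasted livers only, so the 2 factors were not called there in the same feeding state. At the internal promoter itself, 94 bp upstream of the TSS, PPARα was called in fasted livers only.

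*Foxa2* had the most regions of the 3 FOXA genes, though at 7.44 per 100 kb it was far less dense than *Foxa3*, and with gene spans alone it had 1 region, against 2 at *Foxa1* and 3 at *Foxa3*. It had 9 BCL6 regions in fed, 7 in fasted and 10 in Bcl6 fl/fl livers, and 10 and 11 PPARα regions in fed and fasted livers. Its first promoter, 143 bp upstream of the TSS, had BCL6 and PPARα in both states and in the Bcl6 fl/fl list. A second region, 214 bp upstream of the TSS of a shorter transcript, had both factors too, but BCL6 in fed livers only. Most *Foxa2* regions were downstream of the gene, out to 83.7 kb, and 3 of them lay at start sites of the lncRNA gene *9030622O22Rik*. When the start sites of non-coding genes were counted as well, only 3 regions were given to *Foxa2*, against 5 to *Foxa1*.

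*Foxa1* had BCL6 at 1 region only, chr12:57447281-57447554, which was called in all 3 BCL6 lists and both PPARα lists. This region lay 98.67 kb from the TSS, inside *Mipol1*, and is the farthest of those assigned by the nearest TSS. A *Nr5a2* region at 100.5 kb was kept because it lies in the gene. The closest regions left out by the limit were 101.0 kb from *Foxa2*, in 6 lists, and 101.5 kb from *Foxa1*, in 5 lists. Nearer to *Foxa1*, PPARα was called in the coding part of exon 2 in fasted livers, and PPARα in both states together with fed PPARδ in intron 1. *Foxa3* had 3 regions, all in intron 1. One was in 6 lists, one had BCL6 and PPARα in fed livers only, and one was in the Bcl6 fl/fl list alone.

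*Onecut1* had 4 BCL6 regions in fed and 3 in fasted livers, and no PPARδ region. PPARα was called at 3 regions with feeding and 7 after the fast. Thus 4 of its 7 PPARα regions were fasted-only, against 35.8% of all PPARα regions, with few regions behind the count. One of the fasted-only regions was the promoter, 170 bp upstream of the TSS. In intron 1 a region at 3.66 kb had BCL6 in all 3 lists without PPARα, and a region at 4.92 kb had BCL6 in fasted but not in fed C57BL/6 livers, although it was in the fed Bcl6 fl/fl list.

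**Figure D3:**
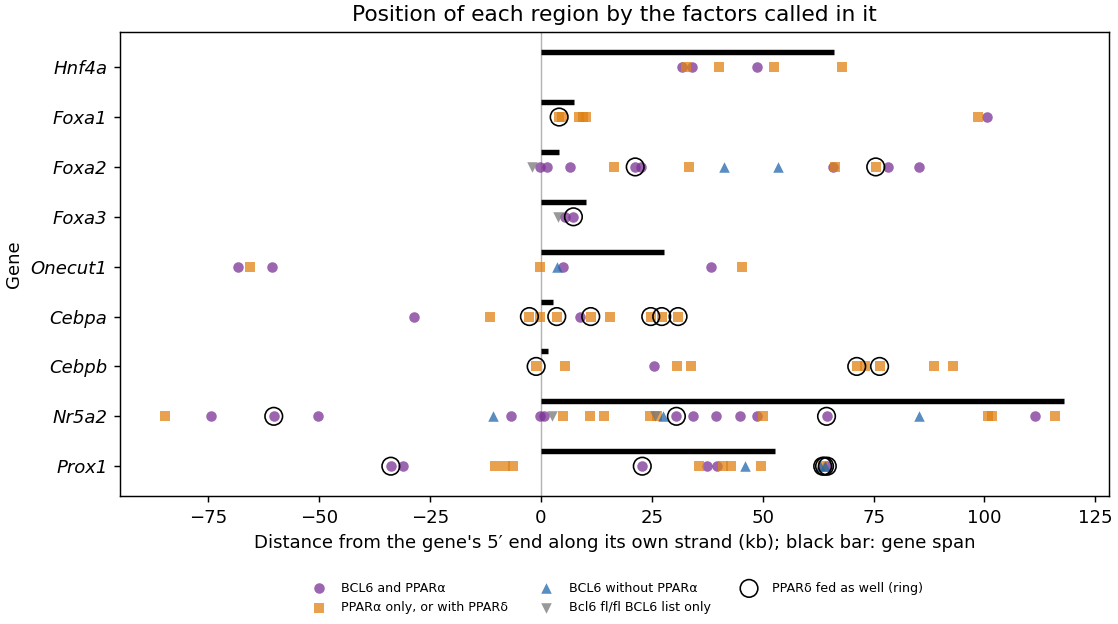
Position of the regions of each gene in kb from the gene's 5′ end along its own strand, with the gene span as a black bar. The marker gives the factors called in the C57BL/6 lists, with both feeding states pooled. *Cebpa*, *Cebpb* and *Foxa1* are mostly squares (PPARα without BCL6), with rings for PPARδ at 6 of 11, 3 of 10 and 1 of 7 regions. BCL6 together with PPARα marks 8 of 15 regions at *Foxa2* and 13 of 28 at *Nr5a2*.

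In the C57BL/6 lists, *Cebpa* and *Cebpb* were occupied mainly by the PPARs, as was *Foxa1*, where 1 of 7 regions had BCL6. *Cebpa* had PPARα at 9 regions in each feeding state and fed PPARδ at 6, the most of the 9 genes. BCL6 was called there at only 2 and 1 regions in fed and fasted C57BL/6 livers. None of the 6 PPARδ regions of *Cebpa* had a C57BL/6 BCL6 peak. *Cebpb* had PPARα at 10 and 8 regions and PPARδ at 3, with BCL6 at 1 region, 25.6 kb downstream and called in both states. Neither gene had a region within its own short, single-exon span. At the *Cebpa* promoter, 134 bp upstream of the TSS, PPARα was called in fasted livers only.

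The C57BL/6 and Bcl6 fl/fl BCL6 lists differed at *Cebpa* and *Cebpb*. At *Cebpb* the Bcl6 fl/fl list held 6 regions, of which 5 were in no C57BL/6 BCL6 list, and all 3 PPARδ regions were among them. At *Cebpa* it held 4, among them 3 of the 6 PPARδ regions. Over all 9 genes, 35 of the 45 fed C57BL/6 BCL6 regions were in the Bcl6 fl/fl list (77.8%, interval 63.7 to 87.5), against 69.6% of all such regions. In the other direction, 35 of 54 Bcl6 fl/fl regions were in the fed C57BL/6 list (64.8%, 51.5 to 76.2), against 62.3%. The strain and the separate experiment cannot be told apart.

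*Nr5a2* had 14 BCL6 regions in fed, 11 in fasted and 16 in Bcl6 fl/fl livers. PPARα was called at 12 regions with feeding and 22 after the fast. Of its 23 PPARα regions 11 were fasted-only, against 35.8% of all PPARα regions, a difference that was not tested. The fasted PPARα list is the longest of the 7. Of the 28 *Nr5a2* regions, 21 lay in the gene. The first promoter, 262 bp upstream of the TSS, had BCL6 and PPARα in both states, as did a region in intron 1, 0.790 kb from the 5′ end of the gene, and one 6.65 kb upstream. An internal promoter, 80 bp downstream of the TSS of a predicted transcript, had PPARα in fasted livers only. PPARδ was called at 3 regions in fed livers, each with BCL6 and PPARα in both states: 2 in intron 6 and 1 at 60.2 kb upstream.

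*Prox1* had 9 BCL6 regions in fed and 7 in fasted livers, 10 PPARα regions in each state and 5 PPARδ regions in fed livers. A cluster of 4 regions lay between chr1:190106142 and chr1:190107908, 61.7 to 63.3 kb downstream of the nearest TSS of the gene. It held 3 of the 5 PPARδ regions, one of them the only PPARδ region of the 9 genes without PPARα. That separation rested on the joining distance. With centres joined within 400 bp it fell into a neighbouring region with PPARα, which left 16 regions at *Prox1*. The PPARδ regions outside the cluster, in intron 3 and 33.8 kb upstream, were both in 6 lists. *Prox1* had no region at its own promoter, the nearest being 6.35 kb upstream with PPARα in both states.

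Most BCL6 regions at these genes had PPARα, while under 1 in 2 PPARα regions had BCL6, and both shares were near those of the genome. Both feeding states were pooled for these shares, so the 2 peaks of a region need not come from the same state. Of 49 BCL6 regions, 40 also had a PPARα peak (81.6%, interval 68.6 to 90.0), against 77.6% of all BCL6 regions. The 2 peak centres were a median of 11.0 bp apart, and 36 of 40 pairs (90.0%) were under 50 bp. Over all 13639 such regions the median was 14.0 bp, and 86.4% were under 50 bp. Conversely, 40 of 93 PPARα regions had BCL6 (43.0%, 33.4 to 53.2), against 40.9%. By gene this share ran from 10.0% at *Cebpb*, 14.3% at *Foxa1* and 18.2% at *Cebpa* to 56.5% at *Nr5a2*, 57.1% at *Onecut1* and 66.7% at *Foxa2*. At *Foxa3* both PPARα regions had BCL6.

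With centres joined within 200 bp and both feeding states pooled, PPARδ was called without PPARα at 1 region. Of 21 PPARδ regions, 20 had a PPARα peak (95.2%, 77.3 to 99.2), against 85.1% of all PPARδ regions, and these were 20 of the 93 PPARα regions (21.5%, 14.4 to 30.9), against 20.9%. A C57BL/6 BCL6 peak was in 9 of the 21 (42.9%, 24.5 to 63.5), against 57.8%. With the Bcl6 fl/fl list counted as well, a choice made after seeing the data, it was 16 of 21 (76.2%, 54.9 to 89.4), against 69.1%. By combination, 8 regions had all 3 factors in the C57BL/6 lists, 32 had BCL6 and PPARα, 12 had PPARα and PPARδ, 41 had PPARα alone and 8 had BCL6 alone. BCL6 with PPARδ was in 1, and 4 were in the Bcl6 fl/fl list alone. The counts of these combinations over all regions are not given here, so none can be read as high or low. Regions found in a single list made up 32.1%, against 39.6% of all regions.

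Most binding was away from the start sites. Of the 106 regions, 20 (18.9%) were within 5 kb of a TSS of their gene and 30 were over 50 kb away, with a median of 26.4 kb. Over all 35244 regions with a protein-coding TSS in reach, 35.7% were within 5 kb, 4469 were over 50 kb away and the median was 10.5 kb. The share in a promoter of any RefSeq transcript, non-coding ones included, was 12.3% (7.31 to 19.9), 13 regions, against 16.2% of all regions. The sequence nearest to each gene differed in length, from 10.7 kb at *Foxa3* to 218 kb at *Nr5a2*, and its part in these distances was not tested.

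Short elements known for these factors were searched on both strands in the 200 bp at each region's centre. They were the BCL6 element TTCCTAGAA, the HNF4 element CAAAGTCCA, the NR5A2 element TCAAGGTCA and the C/EBP element TTGCGCAA, each with up to 1 mismatch, DR1 (2 copies of AGGTCA 1 base apart, bound by PPAR with RXR) with up to 2 mismatches, and exact FOXA TGTTTAC and HNF6 ATTGATT. The DR1, HNF4 and NR5A2 elements share letters, so one stretch can match more than 1 of them. A match is a description of the sequence and not proof of a bound site.

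The FOXA element was in 17 of the 106 regions (16.0%, interval 10.3 to 24.2), against 7.47% of all regions. It was found at 4 regions each of *Cebpa* and *Nr5a2* and 3 of *Foxa1*, and among the PPARδ regions it was in 5 of 21 (23.8%), against 7.66% of all PPARδ regions. This difference rested on the window: in the central 50 bp the element was in 2.83% of the regions of the 9 genes and 2.40% of all regions. The NR5A2 element was in 17.0% (11.0 to 25.3), against 12.2% of all regions, and DR1 in 15.1% (9.51 to 23.1), against 13.1%. DR1 was found at 6 regions of *Nr5a2* and 5 of *Prox1*, which together held 11 of the 16, and in 6 of the 21 PPARδ regions (28.6%), against 21.0%.

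The BCL6 element was in 12.3% of the regions (7.31 to 19.9), against 10.9%, and in 8 of the 49 BCL6 regions (16.3%), against 15.3% of all BCL6 regions. The HNF4 element was in 12.3%, against 16.9%, the C/EBP element in 11.3% (6.60 to 18.8), against 9.40%, and the HNF6 element in 7.55% (3.87 to 14.2), against 9.37%. In the windows of 200 bp, FOXA was the only one of the 7 elements whose share over all regions lay outside the interval of the 9 genes. In the central 50 bp this was NR5A2 instead, with 7.55% (3.87 to 14.2) against 3.35%. That difference depended on the mismatch allowed: exact NR5A2 matches in the 200 bp were in 1 region, 0.943% against 1.09%. No element was found in 38 of the 106 windows, 6 of them among the 8 of *Onecut1*. The same count over all regions is not given here, so neither number can be read as high or low. Base composition was alike, with a median GC content of 49.2% at the 9 genes and 47.5% over all regions.

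**Figure D4:**
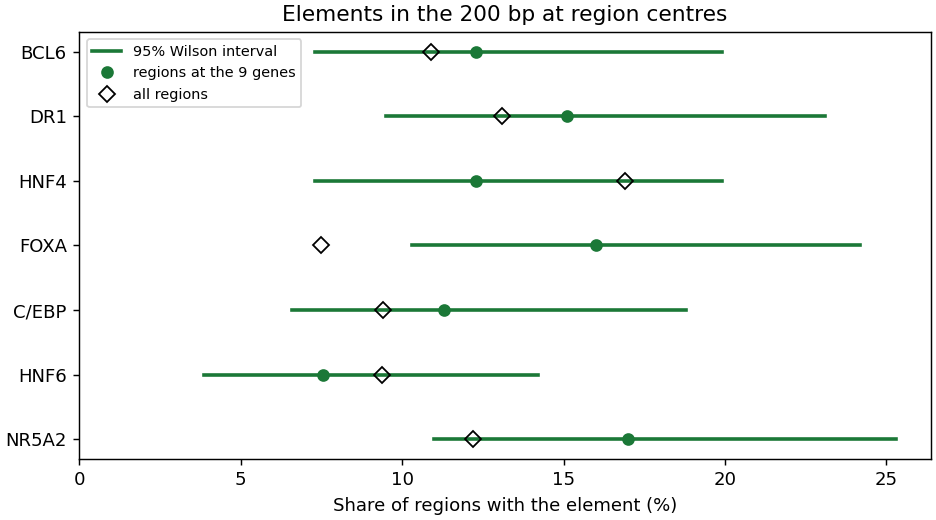
Share (%) of regions with each of 7 elements in the 200 bp at the region's centre, for the 9 genes (circles with 95% Wilson intervals) and all regions (diamonds). The diamond is outside the interval for FOXA only, at 7.47% against 16.0%.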

How the data were processed

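Per the study's methods, alignment by the authors used Bowtie and mm10, with uniquely placed reads and 1 read per position kept. The authors called peaks with HOMER over 3 pooled replicates against input and kept those enriched by DESeq2 on the single libraries. The deposited lists hold peak positions alone, with peaks of one width per list. Reads with several matches were left out, so near-identical sequences can lack peaks. Other samples of the series were not used here.

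Peak centres of the 7 lists were joined by single linkage within 200 bp. Regions were assigned with RefSeq annotation of GRCm38, the assembly of mm10, and windows were read from that genome. A gene's own sequence for densities was its span plus all positions within 100 kb whose nearest protein-coding TSS was its own. The 9 genes were all named with their counts, other genes only from the lists of 14, 9 and 9 genes or where a region lay in them. Sequences were shown for a gene's region in the most lists, if at least 6. The genes, lists and elements were chosen with earlier results of these data known. Distances, assignments, BCL6 lists, promoter limits and element settings were varied. The functions were tested on simulated data. Versions were 3.11.15 for Python, 2.4.6 for NumPy, 1.17.1 for SciPy and 3.10.9 for Matplotlib.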

Additional observations from a re-analysis of the deposited data

How the results depend on the processing

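Of 162 values recomputed under 14 alternatives for 16 results, 146 stayed within their interval or within 1.5 times the count. The 106 regions became 43 with gene spans alone and 62 with start sites of all RefSeq genes. The latter also moved the share of fed BCL6 regions found in Bcl6 fl/fl livers to 88.5%, and requiring both BCL6 lists moved the fed-only share to 22.0%. In shorter windows of 50 bp the elements fell to 5.66% for BCL6 (3.25% of all regions), 5.66% for DR1 (4.21%), 1.89% for HNF4 (4.95%), 2.83% for FOXA (2.40%), 3.77% for C/EBP (3.23%), 2.83% for HNF6 (3.71%) and 7.55% for NR5A2 (3.35%). With 1 mismatch fewer they were 2.83% for BCL6 (1.23%), 1.89% for DR1 (3.06%) and 1.89% for HNF4 (2.17%). C/EBP was then at 0% (0.306%) and NR5A2 at 0.943% (1.09%). DR1, C/EBP and NR5A2 were thus below the share of all regions there and above it in the main search of the 200 bp windows. The counts behind them were 2, 0 and 1 regions. Counts of single genes moved in 16 of 81 recomputed values, among them *Foxa2* at 9 regions within 50 kb and 29 within 1 Mb.

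No paired analysis was possible because the lists are pooled over replicates and no result comes from a test. Replicates could not be left out, and a stricter peak threshold could not be tried without scores. Depth is unknown.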
